A study of Mus musculus with 13 samples.

Results

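The genes of the endosomal Toll-like receptors (TLRs) and of Unc93b1 were followed through 7 sorted subsets of mouse bone marrow (BM) cultures. The members were chosen by gene symbol, and all 8 (Tlr3, Tlr7, Tlr8, Tlr9, Tlr11, Tlr12, Tlr13 and Unc93b1) were found among the 24532 genes of the tables. Bone marrow of C57BL/6 mice aged 8 to 14 weeks was cultured for 8 to 10 days, with FLT3L at 10 μg/ml (FL-BM) or GM-CSF at 0.5 μg/ml (GM-BM). From GM-BM culture, dendritic cells (GM-DCs) and macrophages (GM-Macs) were sorted. From FL-BM culture, the cDC2 gate was split into CD115+ CX3CR1+ cells (non-DCs), CD115- CX3CR1- CD83- cells (immature FL-cDC2s) and CD83+ cells (mature FL-cDC2s), and the cDC1 gate into CD83- (immature) and CD83+ (mature) FL-cDC1s. There were 13 bulk libraries, a pair for every subset but mature FL-cDC1s, for which there was 1. Libraries of the cDC2 gate were deposited together, apart from those of the cDC1 gate and of GM-BM culture. Immature and mature FL-cDC1s were also deposited apart. No source says whether these sets were processed separately, so effects of processing and of subset or culture cannot be told apart between them. The libraries of a pair are separate RNA extractions, and no source says whether their cells came from separate cultures or mice, so a p-value here measures only the spread between libraries, and that spread may be technical.

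Endosomal TLRs detect nucleic acids and microbial proteins that reach endosomes. TLR3 binds double-stranded RNA, TLR7 and TLR8 sense products of single-stranded RNA, TLR9 binds unmethylated CpG DNA and mouse TLR13 binds bacterial ribosomal RNA. Mouse TLR11 and TLR12 sense profilin of the parasite Toxoplasma gondii. UNC93B1 is the membrane chaperone that escorts these receptors from the endoplasmic reticulum to endosomes. TLR3 signals through the adaptor TRIF, and the others signal through MyD88.

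Libraries held 46042095 to 71330242 reads in genes. Levels are FPKM, read counts scaled by transcript length and library size, for comparison between genes. In some libraries the trends by transcript length given below limit that comparison. A floor of 3 reads came to 0.00829 to 0.0284 FPKM for the members, and it covers counting error only. A gene passed the test where the edgeR quasi-likelihood p, adjusted by Benjamini-Hochberg over all genes tested, was under 0.05. Fold changes are on the log2 scale with their standard error (SE). In bulk samples, fewer cells of a type and less RNA per cell cannot be told apart.

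Markers were read before the receptors. Xcr1, a cDC1 gene, was at 112 and 86.5 FPKM in immature and 44.6 FPKM in mature FL-cDC1s, and at most 0.875 FPKM elsewhere. Of 8 cDC1 genes listed, 6 were higher in immature FL-cDC1s than in immature FL-cDC2s (8.9% of all genes), and 2 did not pass. Mean FPKM in immature FL-cDC1s was 78.8 for Cadm1, 35.9 for Wdfy4, 73.4 for Batf3 and 113 for Cd24a. Immature FL-cDC2s had 86.7 for Cadm1 and 38.2 for Wdfy4, mature FL-cDC2s 73.7 for Batf3, and GM-DCs 127 for Cd24a. Csf1r, which encodes CD115, reached 1157 and 1243 FPKM in non-DCs, whereas immature FL-cDC2s had 20.1 and 44.6 FPKM. The mature FL-cDC1 library also held B cell genes, with 4 of 7 at 1 FPKM or more, among them Cd79a (14.8 FPKM) and Ms4a1 (8.93 FPKM), while immature FL-cDC2s held 3 and 2 of the 7 at that level.

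Replicates of 2 subsets stood apart by transcript length, which touches these genes because the TLR transcripts are long (3227 to 5073 bases implied by counts and FPKM, against 2298 for Unc93b1). In immature FL-cDC1s the median log2 ratio of replicate 2 to replicate 1 was -0.84 for 1090 genes of 3000 to 5100 bases and 0.77 for 1012 genes under 1500 bases. In GM-Macs the medians were -0.70 and 0.62. Leaving out 1 of these 4 libraries could change a call on a member given below. The value without it is then given, if the comparison or neighbour step holds that library. Calls on steps between other subsets also moved in these fits and enter only the counts at the end. Apart from the comparisons and steps, only immature FL-cDC1s over GM-DCs was refitted, for Tlr11 and Tlr12. Calls on genes other than the members were not refitted in this way.

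**Figure D1:**
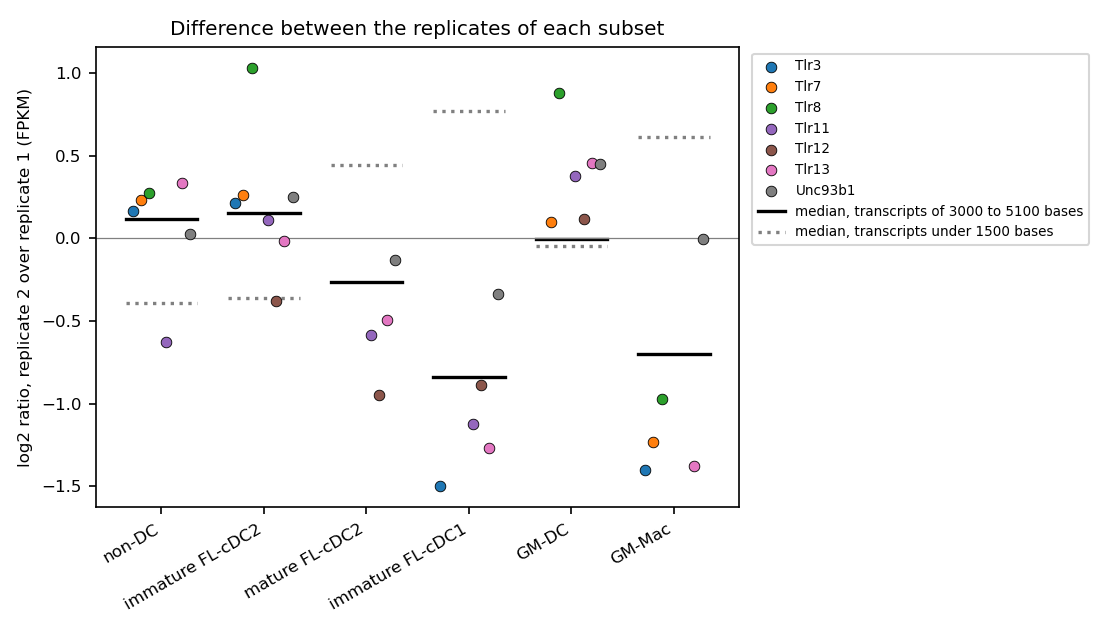
Log2 ratio of FPKM in replicate 2 over replicate 1 (y axis) in the 6 subsets with a pair of libraries (x axis). Points are members with at least 50 reads in both libraries, and lines are medians of genes with long or short transcripts. In immature FL-cDC1s the median of long transcripts was -0.84, and each TLR gene plotted lies below 0.

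Tlr3 was highest in FL-cDC1s. It was at 74.0 and 26.2 FPKM in immature FL-cDC1s and at 10.9 FPKM in the mature library. Non-DCs had 2.50 and 2.81 FPKM, GM-Macs 1.77 and 0.669, and immature FL-cDC2s 0.432 and 0.501. The lowest values were 0.129 and 0.199 FPKM for GM-DCs and 0.0820 and 0.195 FPKM for mature FL-cDC2s. Every FL-cDC1 library was above all 10 others, and the GM-DC and mature FL-cDC2 values overlapped. In this order of means, the steps from non-DCs to GM-Macs (adjusted p = 0.106), from immature FL-cDC2s to GM-DCs (adjusted p = 0.111) and from GM-DCs to mature FL-cDC2s (adjusted p = 0.944) did not pass, though the values of the first 2 pairs did not overlap. Without GM-Mac replicate 1, the step from non-DCs to GM-Macs passed (adjusted p = 0.0493) and that from GM-Macs to immature FL-cDC2s, which passed with all libraries (adjusted p = 0.0275), did not (adjusted p = 0.197).

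Tlr7 and Tlr8, neighbours on the X chromosome, were highest in the macrophage-like subsets. Non-DCs had 32.2 and 37.8 FPKM of Tlr7, while GM-Macs had 16.6 and 7.07, and immature FL-cDC2s 6.15 and 7.38. Much lower were GM-DCs (0.256 and 0.274 FPKM) and mature FL-cDC2s (0.298 and 0.0687 FPKM). The FL-cDC1 libraries held 4, 0 and 0 reads. Immature FL-cDC2s were thus the DC subset with the most Tlr7, and FL-cDC1s were at or near the floor. The immature FL-cDC2 values overlapped those of GM-Macs through GM-Mac replicate 2 alone, without which the step did not pass either (1.69, adjusted p = 0.0695).

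Tlr8 was also highest in non-DCs and GM-Macs, but parted from Tlr7 in both FL-cDC2 subsets. Non-DCs had 24.6 and 29.8 FPKM, GM-Macs 14.9 and 7.61, GM-DCs 0.683 and 1.26, and immature FL-cDC2s 0.409 and 0.838. All 5 libraries of mature FL-cDC2s and FL-cDC1s had 0 reads. The GM-DC and immature FL-cDC2 values overlapped (adjusted p = 0.23), and GM-DCs were above mature FL-cDC2s, with which they overlapped for Tlr7. In GRCm38.p6, Tlr8 spans chrX:167241123-167264329 and Tlr7 spans chrX:167303380-167330574, with 39050 bases between them.

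Tlr9 was low throughout. It ran from 0.0121 FPKM (2 reads) in a non-DC library to 0.507 FPKM (100 reads) in mature FL-cDC1s, and no library held over 109 reads. It passed in none of the 7 comparisons below with all libraries, and in 1 of them when a non-DC library was left out.

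Tlr13 was present in every library, at 9.14 FPKM or more. Non-DCs had 81.4 and 103 FPKM, GM-Macs 43.3 and 16.7, immature FL-cDC2s 26.9 and 26.6, and the mature FL-cDC1 library 26.6. Mature FL-cDC2s had 19.9 and 14.2 FPKM, immature FL-cDC1s 22.0 and 9.14, and GM-DCs 11.8 and 16.2. Both non-DC libraries were above all others, and only this step in the order of means passed the test, which it did not without GM-Mac replicate 2 (adjusted p = 0.0896). Tlr13 made up 16.04% to 68.2% of the summed FPKM of the 7 TLR genes, least in immature FL-cDC1s, where Tlr3 made up 53.8% and 46.9%.

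Unc93b1 was at a higher level than the receptors it escorts, 4.71 to 25.4 times the summed FPKM of the 7 TLR genes in the same library. The top ratio was that of GM-Mac replicate 2, which stood apart by transcript length, and GM-Mac replicate 1 was at 10.6. The next highest was 18.0, in immature FL-cDC2 replicate 2. Immature FL-cDC1 replicates 1 and 2 were at 6.46 and 12.6. GM-Macs had 823 and 823 FPKM of Unc93b1, non-DCs 806 and 820, immature FL-cDC1s 888 and 703, and immature FL-cDC2s 616 and 734. The mature FL-cDC1 library had 362 FPKM, GM-DCs 199 and 272, and mature FL-cDC2s 217 and 198. The 5 libraries of these last 3 subsets, which had the highest Cd83, were below the other 8. No step between neighbours in the order of means passed the test with all libraries, although the mature FL-cDC1 value lay outside the ranges of both its neighbours.

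**Figure D2:**
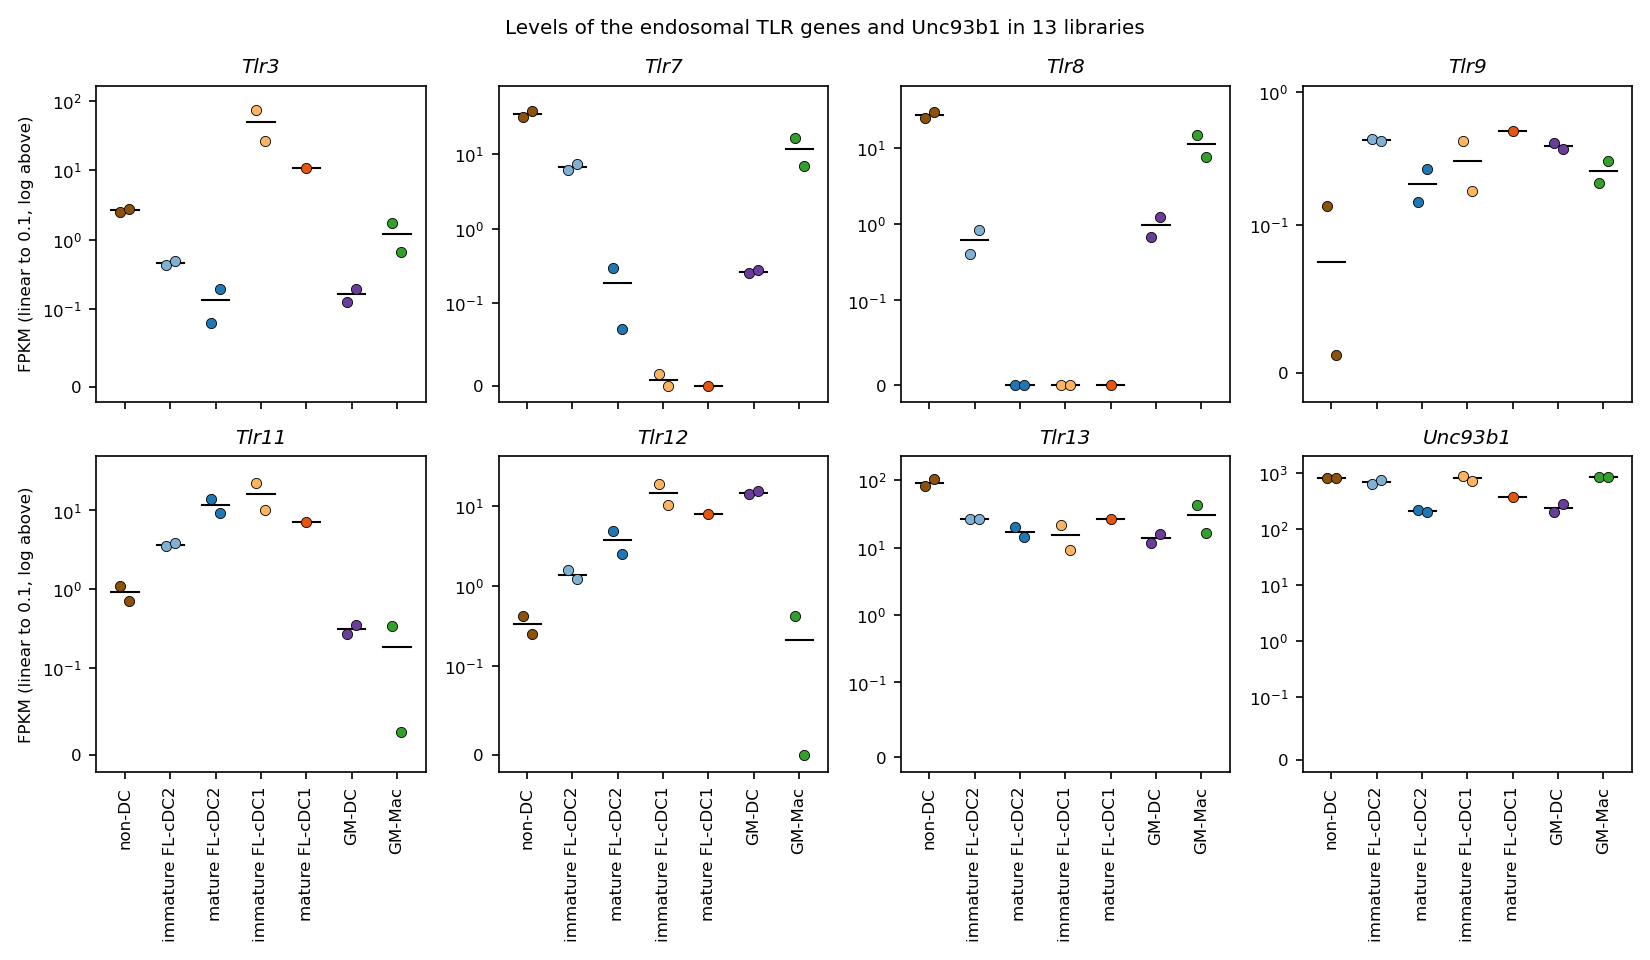
FPKM of the 8 genes (y axes, linear to 0.1 and logarithmic above) in 7 subsets (x axes). Points are libraries and lines are means. Tlr3 lies between 10.9 and 74.0 in FL-cDC1s, Tlr8 has 0 reads in 5 libraries, and Tlr12 is high in GM-DCs where Tlr11 is low.

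Tlr11 and Tlr12 were both present in FL-BM DCs and parted in GM-DCs. Tlr11 was at 22.2 and 10.2 FPKM in immature FL-cDC1s, and mature FL-cDC2s had 14.1 and 9.42, mature FL-cDC1s 7.22 and immature FL-cDC2s 3.53 and 3.82. Non-DCs had 1.10 and 0.711 FPKM, GM-DCs 0.267 and 0.347, and GM-Macs 0.342 and 0.0267. All 7 FL-BM DC libraries were above the 6 others.

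Tlr12 was at 18.7 and 10.1 FPKM in immature FL-cDC1s, 7.89 in the mature library, 4.83 and 2.51 in mature FL-cDC2s, and immature FL-cDC2s had 1.55 and 1.19. GM-DCs had 13.8 and 14.99 FPKM, inside the range of immature FL-cDC1s. Non-DCs had 0.416 and 0.248 FPKM, and GM-Macs 0.422 and 0, the latter from 85 and 0 reads. By means, Tlr12 was thus highest in FL-cDC1s and GM-DCs, lower in FL-cDC2s and lowest in both macrophage-like subsets. No step between neighbours in this order passed the test with all libraries (adjusted p = 0.162 to 0.902). The step from non-DCs to GM-Macs was 0.82 with all libraries and 9.26 without GM-Mac replicate 1, where GM-Macs held 0 reads. Further apart, immature FL-cDC1s and GM-DCs each passed over non-DCs (adjusted p = 0.00277 and 0.00441). Immature FL-cDC1s over mature FL-cDC2s did not (adjusted p = 0.0942). These pairs further apart were not refitted without single libraries. The level of Tlr12 was 51.8 and 43.2 times that of Tlr11 in GM-DCs, and 0.266 to 1.09 times in the FL-BM DC libraries.

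Between immature FL-cDC1s and GM-DCs, Tlr11 differed and Tlr12 did not pass. The log2 fold change of immature FL-cDC1s over GM-DCs was 5.89 ± 0.81 (SE) for Tlr11 (adjusted p = 0.000302) and 0.19 ± 0.87 for Tlr12 (adjusted p = 0.902). Without immature FL-cDC1 replicate 2 the values were 6.26 (adjusted p = 0.000656) and 0.46 (adjusted p = 0.782), and over 4 fits that each left out 1 library of the pair, the adjusted p ran from 0.000656 to 0.00642 for Tlr11. In that pair, 42.7% of 14936 genes passed. This pair, 1 of 21 pairs of subsets, was chosen after its values were seen.

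The 250 bases before the annotated starts of both genes are shown because the genes were high together in FL-cDC1s and apart in GM-DCs. They are RefSeq sequences on GRCm38.p6, 5′ to 3′ on each gene's strand, and 6 of the 8 members had an entry. Capitals mark GAGGAAGT, a PU.1 site, and the core of an interferon-stimulated response element, which is GAAA, any 2 bases, then GAAA.
Tlr11, chr14:50357664-50357913, plus strand: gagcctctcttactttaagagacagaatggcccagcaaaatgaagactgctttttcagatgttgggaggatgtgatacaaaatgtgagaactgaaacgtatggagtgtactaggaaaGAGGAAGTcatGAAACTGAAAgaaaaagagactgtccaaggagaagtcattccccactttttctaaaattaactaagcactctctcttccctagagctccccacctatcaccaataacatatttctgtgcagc
Tlr12, chr4:128618620-128618869, minus strand: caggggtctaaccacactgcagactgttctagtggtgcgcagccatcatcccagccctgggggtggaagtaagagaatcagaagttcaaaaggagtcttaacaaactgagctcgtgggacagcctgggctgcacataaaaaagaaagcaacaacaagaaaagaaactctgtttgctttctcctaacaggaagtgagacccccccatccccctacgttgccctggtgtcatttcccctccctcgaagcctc
Both strands were searched. In the Tlr11 window, GAGGAAGT began 133 bases before the start and GAAACTGAAA began 122 bases before it, with no overlap between them. The Tlr12 window held neither. Nor did it hold the AP-1 motif TGANTCA, the C/EBP motif TTGCNNAA or the composite Ets and IRF element (GGAA, any 2 bases, GAAA), which the Tlr11 window also lacked. Over 32851 promoter windows of this length, 2.44% held GAGGAAGT, 2.98% the response element core, 6.75% TGANTCA, 9.56% TTGCNNAA and 2.30% the composite element. The motifs were chosen with the sequences seen, and a match is a description of letters.

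**Figure D3:**
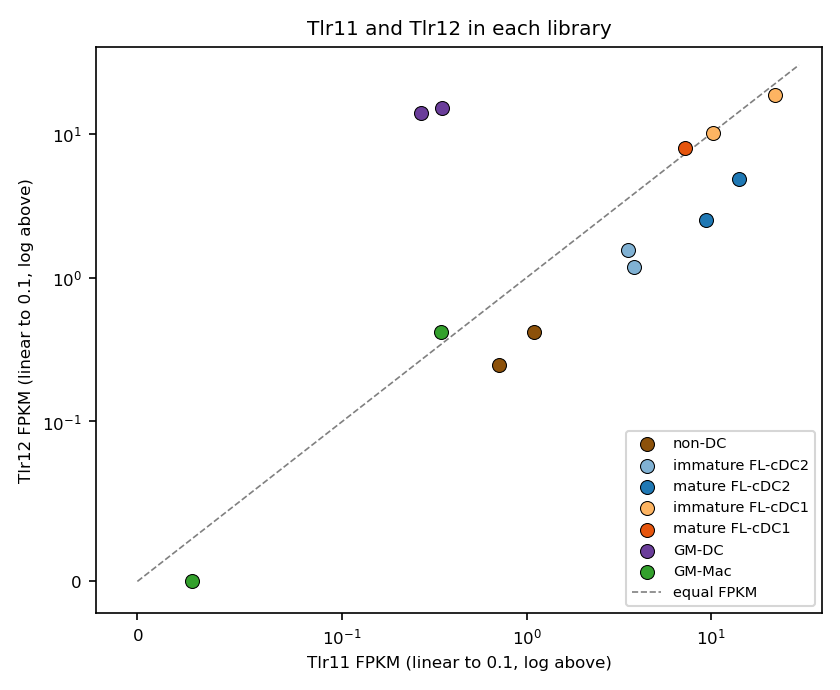
Tlr11 FPKM (x axis) against Tlr12 FPKM (y axis), both linear to 0.1 and logarithmic above, with 1 point per library and the line of equal FPKM. The GM-DC libraries lie at 13.8 and 14.99 FPKM of Tlr12 and 0.267 and 0.347 FPKM of Tlr11, and the FL-cDC1 libraries lie near the line.

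Immature FL-cDC1s were set against immature FL-cDC2s to compare the FL-BM lineages before maturation. Tlr3, Tlr11 and Tlr12 were higher in FL-cDC1s, and Tlr7 and Tlr8 were lower. So 5 of 8 members passed the test, against 20.3% of 14936 genes, with 3 higher (8.9% of genes) and 2 lower (11.4%). Tlr3 was higher by 7.12 ± 0.68 (adjusted p = 0.000118), Tlr12 by 3.81 ± 0.98 (adjusted p = 0.0222) and Tlr11 by 2.54 ± 0.69 (adjusted p = 0.0273). Tlr8 was at least 53.6-fold lower, and Tlr7 changed by -9.32 ± 0.93, a size that rests on 4 reads. Unc93b1 (0.67 ± 0.25, adjusted p = 0.0841) and Tlr13 (-0.38 ± 0.43, adjusted p = 0.573) did not pass.

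The calls on Tlr11 and Tlr12 turned on single libraries. Without immature FL-cDC2 replicate 1 or 2, the adjusted p was 0.128 or 0.132 for Tlr11 and 0.102 or 0.143 for Tlr12, and for Tlr11 it was 0.0789 without immature FL-cDC1 replicate 1 and 0.0577 when scaled by library size alone. Over 13 alternatives it ran from 0.00202 to 0.132 and from 0.000391 to 0.143. Without immature FL-cDC1 replicate 2, which stood apart by length, 5 members passed. Of 10 macrophage markers, 1 was higher in immature FL-cDC1s and 6 were lower. Lyz2, which encodes lysozyme, was the higher one, at 3816 and 4102 FPKM against 680 and 1427 FPKM, and the other 9 summed to 240 and 404 FPKM in immature FL-cDC1s and 574 and 873 FPKM in immature FL-cDC2s. Their part in these differences was not tested.

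Maturation of FL-cDC2s was followed by CD83. Tlr11 and Tlr12 rose, and Tlr3, Tlr7, Tlr8 and Unc93b1 fell. So 6 of 8 members passed, against 46.5% of 13242 genes, with 2 higher (22.5% of genes) and 4 lower (24%). Tlr11 rose by 2.09 ± 0.31 (adjusted p = 0.00103) and Tlr12 by 1.84 ± 0.42 (adjusted p = 0.00834). The change was -4.75 ± 0.54 for Tlr7 (adjusted p = 0.000249), -1.29 ± 0.21 for Unc93b1 (adjusted p = 0.00173) and -1.33 ± 0.44 for Tlr3 (adjusted p = 0.0396), and Tlr8 was at least 51.5-fold lower. Tlr13 (-0.23 ± 0.23, adjusted p = 0.446) did not pass.

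The Tlr3 call was lost without mature FL-cDC2 replicate 1 (-0.84, adjusted p = 0.122) and without immature FL-cDC2 replicate 1 (adjusted p = 0.054) or 2 (adjusted p = 0.114). It was also lost in the fit of all 13 libraries (adjusted p = 0.0942), with no filter (adjusted p = 0.0507), with the length offset (adjusted p = 0.0551) and in limma on log2(FPKM + 1) (adjusted p = 0.0565), with 0.00913 to 0.122 over 13 alternatives. The Tlr12 call was lost in the fit of all 13 libraries (1.80, adjusted p = 0.162) and without mature FL-cDC2 replicate 1 (1.29, adjusted p = 0.0606), with 0.000211 to 0.162 over 13 alternatives. Tlr13 passed when scaled by library size alone (-0.64, adjusted p = 0.0449) and in limma at either pseudocount (adjusted p = 0.037 and 0.036). Of 10 macrophage markers 9 fell, from sums of 1254 and 2300 FPKM to 106 and 107 FPKM, and their part in the fall of Tlr7 and Tlr8 was not tested. Of 8 cDC1 genes, 2 rose and 3 fell. Mature FL-cDC2s held Tlr11 at 87.1% and 58.1% of its immature FL-cDC1 mean, and the 8 cDC1 genes at medians of 5.23% and 4.22%. These genes ran from 0.216% for Xcr1 to 80.9% for Batf3 in replicate 1, and from 0.130% for Clec9a to 120% for Batf3 in replicate 2.

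Maturation of FL-cDC1s rested on 1 mature library, which is assumed to vary like the other subsets. Tlr3 and Unc93b1 fell, 2 of 8 members against 20.9% of genes, and all calls were lower (8.28% of genes, with 12.6% higher). The change was -2.21 ± 0.71 for Tlr3 (adjusted p = 0.0495) and -1.19 ± 0.32 for Unc93b1 (adjusted p = 0.0269). Tlr11 (-1.19 ± 0.84), Tlr12 (-0.90 ± 1.11) and Tlr13 (0.75 ± 0.52) did not pass. Tlr7 and Tlr8 had at most 4 reads in any library of both subsets, so no fold is given.

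Both calls turned on single libraries. Without immature FL-cDC1 replicate 1, Tlr3 changed by -1.47 (adjusted p = 0.137, with 0.00882 to 0.137 over 10 alternatives), and without replicate 2 by -2.69 (adjusted p = 0.0299). Its call was also lost with no filter (adjusted p = 0.0507), library size alone (adjusted p = 0.0728), RLE factors (adjusted p = 0.0567) or only the libraries compared (adjusted p = 0.0573). Without replicate 2, Unc93b1 changed by -1.23 (adjusted p = 0.0522, with 0.000529 to 0.301 over 10 alternatives), and without replicate 1 by -1.16 (adjusted p = 0.0454). With only the libraries compared, its adjusted p was 0.301. The 7 B cell genes summed to 33.7 FPKM in the mature library and 6.80 and 16.6 FPKM in immature FL-cDC1s, and their part in these changes was not tested.

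The maturation change was then compared between the lineages. Tlr11 changed by -1.19 in FL-cDC1s and 2.09 in FL-cDC2s, and the difference in the fit of all libraries was -3.25 ± 1.10 (adjusted p = 0.125). No member passed by edgeR, with 1 (Tlr11) at an unadjusted p under 0.05, while 6.03% of genes passed (5% higher and 1.03% lower). DESeq2 called 2 members, Tlr11 and Tlr8, the latter at 0 reads in 3 of the 4 subsets, and limma called 2 at either pseudocount. The adjusted p of Tlr11 ran from 0.0162 to 0.249 over 14 alternatives.

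GM-DCs and GM-Macs are the DC and macrophage subsets of the GM-BM culture. Tlr12 was higher in GM-DCs, and Tlr3, Tlr7, Tlr8 and Unc93b1 were lower. So 5 of 8 members passed, against 19.3% of 13083 genes, with 1 higher (8.71% of genes) and 4 lower (10.6%). Tlr12 was higher by 5.85 ± 1.32 (adjusted p = 0.0262). That size rests on 85 and 0 reads in GM-Macs and ran from 3.69 to 14.4 over 13 alternatives. The change was -5.68 ± 0.52 for Tlr7 (adjusted p = 0.00339), -3.78 ± 0.49 for Tlr8 (adjusted p = 0.00545), -3.08 ± 0.66 for Tlr3 (adjusted p = 0.0216) and -2.05 ± 0.39 for Unc93b1 (adjusted p = 0.015). Tlr11 (0.52 ± 1.08, adjusted p = 0.775) did not pass.

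Tlr13 (-1.31 ± 0.46, adjusted p = 0.0967) passed without GM-Mac replicate 2, which stood apart by length (-1.79, adjusted p = 0.018, with 0.018 to 0.38 over 13 alternatives). Unc93b1 was lost without GM-DC replicate 1 (-1.81, adjusted p = 0.0838, with 5.75e-07 to 0.0838). DESeq2 did not call Tlr12 (adjusted p = 0.0988, with 1.66e-13 to 0.0988 over 13 alternatives), and limma did not call Tlr3 at either pseudocount (adjusted p = 0.0754 and 0.0603). Tlr13 passed also in DESeq2 (adjusted p = 0.0497) and with the length offset (adjusted p = 0.0349).

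Of 10 macrophage markers, 9 were also lower in GM-DCs (10.6% of all genes), unlike Tlr12, which was higher. In GM-DCs, the marker medians were 5.28% and 13.2% of the GM-Mac means. They ran from 1.55% for Lyz2 to 34.0% for Adgre1 in replicate 1, and from 2.68% to 84.9% for the same genes in replicate 2. Tlr8 stood at 6.06% and 11.2% of its GM-Mac mean, near these medians, and Tlr7 stood below them at 2.16% and 2.31%. Above them were Tlr3 at 10.6% and 16.3% and Tlr13 at 39.3% and 53.9%. The part of macrophage RNA in the GM-DC levels was not tested.

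The macrophage-like subsets of the cultures, non-DCs and GM-Macs, were compared next. Tlr13 (1.80 ± 0.44, adjusted p = 0.0187) and Tlr11 (2.44 ± 0.73, adjusted p = 0.0386) were higher in non-DCs, 2 of 8 members against 20.5% of genes, with 2 higher (9.29% of genes) and 0 lower (11.2%). Tlr7 (1.74 ± 0.59, adjusted p = 0.0601) and Tlr8 (1.44 ± 0.48, adjusted p = 0.0675) were higher in both non-DC libraries than in both GM-Mac libraries but did not pass. Unc93b1 changed by 0.13 ± 0.25 (adjusted p = 0.757). Of 6 markers of mature DCs, 4 were lower in non-DCs and 0 higher, where 11.2% of genes were lower and 9.29% higher. Of 10 macrophage markers 2 were lower and 1 higher, of 7 B cell genes 2 and 1, and of 5 monocyte genes 2 and 0. Their part in these differences was not tested.

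No call held in every set of libraries. Without non-DC replicate 1, non-DC replicate 2 or GM-Mac replicate 2, the adjusted p was 0.162, 0.101 or 0.0649 for Tlr11 and 0.058, 0.115 or 0.0896 for Tlr13. Over 13 alternatives it ran from 0.00362 to 0.162 for Tlr11 and from 0.00147 to 0.115 for Tlr13. Tlr11 was also lost with library size alone (adjusted p = 0.0677), in limma on log2(FPKM + 1) (adjusted p = 0.152) and with only the libraries compared (adjusted p = 0.143). Without GM-Mac replicate 1, 5 members passed, among them Tlr3 (adjusted p = 0.0493), Tlr7 (adjusted p = 0.0484) and Tlr12 (adjusted p = 0.00497). With only the libraries compared, Tlr7 (adjusted p = 0.037) and Tlr8 (adjusted p = 0.039) passed.

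Immature FL-cDC2s and non-DCs share the cDC2 gate. Tlr11 and Tlr12 were higher in immature FL-cDC2s, and every other member but Tlr9 was lower. So 7 of 8 members passed, against 47.6% of 13242 genes, with 2 higher (23.6% of genes) and 5 lower (24%). The change was -6.05 ± 0.44 for Tlr8 (adjusted p = 8.36e-05), -3.13 ± 0.44 for Tlr3 (adjusted p = 0.000945), -2.99 ± 0.47 for Tlr7 (adjusted p = 0.00156), -2.41 ± 0.24 for Tlr13 (adjusted p = 0.000162) and -0.89 ± 0.21 for Unc93b1 (adjusted p = 0.00986). Tlr11 was higher by 1.39 ± 0.31 (adjusted p = 0.00808) and Tlr12 by 1.39 ± 0.43 (adjusted p = 0.0292).

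Scaled by library size alone, which moved the median of all genes from 0.01 to 0.64, Unc93b1 did not pass (-0.26, adjusted p = 0.237), nor did it without non-DC replicate 1 (adjusted p = 0.051) or 2 (adjusted p = 0.0637), nor in limma at either pseudocount (adjusted p = 0.196 and 0.2005), with 2.46e-05 to 0.237 over 13 alternatives. Tlr11 was lost in the fit of all 13 libraries (adjusted p = 0.141) and without non-DC replicate 2 (1.11, adjusted p = 0.0651, with 0.000219 to 0.141 over 13 alternatives). Tlr12 was lost in the fit of all 13 libraries (adjusted p = 0.281) and without non-DC replicate 2 (1.08, adjusted p = 0.163) or immature FL-cDC2 replicate 1 (adjusted p = 0.0918), with 0.00575 to 0.281 over 13 alternatives. Tlr9 passed without non-DC replicate 1 (4.49, adjusted p = 0.0248, with 0.0248 to 0.405 over 11 alternatives), where the remaining non-DC library held 2 reads.

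All 10 macrophage markers fell as well. In immature FL-cDC2s their medians were 2.79% and 5.47% of the non-DC means, up to 21.5% for Cd68. Tlr7 was at 17.5% and 21.1%, Tlr13 at 29.2% and 28.8% and Tlr3 at 16.2% and 18.8%, above these medians, and Tlr8 was below them at 1.51% and 3.08%. Immature FL-cDC2s also held Siglech, a gene of plasmacytoid DCs, at 13.3 and 11.3 FPKM. By the paper's gates, cDC2s are B220- and MHCII+ and plasmacytoid DCs are B220+ and MHCII-, and immature FL-cDC2s were sorted as CD115- CX3CR1-. The part of macrophage-like and plasmacytoid cells in these levels was not tested.

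GM-DCs were set against mature FL-cDC2s, the CD83-high cDC2-gated DCs of the other culture. Tlr11 was lower in GM-DCs (-5.41 ± 0.79, adjusted p = 0.00105) and Tlr8 was at least 91.5-fold higher, 2 of 8 members against 20.6% of genes, with 1 higher (12.9% of genes) and 1 lower (7.75%). Tlr12 (1.82 ± 0.90, adjusted p = 0.185) did not pass among all libraries, though both GM-DC libraries were above both mature FL-cDC2 libraries. In a fit of these 4 libraries it passed (1.81, adjusted p = 0.0036, with 0.0031 to 0.506 over 13 alternatives). Unc93b1 changed by 0.03 ± 0.25 and Tlr13 by -0.44 ± 0.43. Macrophage markers summed to 1475 and 2311 FPKM in GM-DCs and 106 and 107 FPKM in mature FL-cDC2s, and their part in the Tlr8 difference was not tested.

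The change between macrophage-like cells and DCs was then compared between the cultures, as GM-DCs over GM-Macs against mature FL-cDC2s over non-DCs. These macrophage-like subsets differ in origin. The paper identifies the non-DCs as precursors of cDC2s that arise from pre-cDCs and common DC progenitors, and not from monocytes. It describes GM-Macs as arising from monocytes and their progenitors. Only Tlr8 passed, 1 of 8 members against 8.51% of genes (5.31% higher and 3.2% lower). It was lower in DCs of both cultures, by far less in GM-BM culture, where GM-DCs kept 0.683 and 1.26 FPKM and mature FL-cDC2s had 0 reads. Tlr11 (-2.97 ± 0.99, adjusted p = 0.0961), which was lower in non-DCs than in mature FL-cDC2s, did not pass, and ran from 0.00554 to 0.939 over 17 alternatives. Without GM-Mac replicate 2 it passed (-3.79, adjusted p = 0.00684), without GM-Mac replicate 1 Tlr12 passed (adjusted p = 0.00332), and without mature FL-cDC2 replicate 1 Tlr7 passed (adjusted p = 0.0481).

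**Figure D4:**
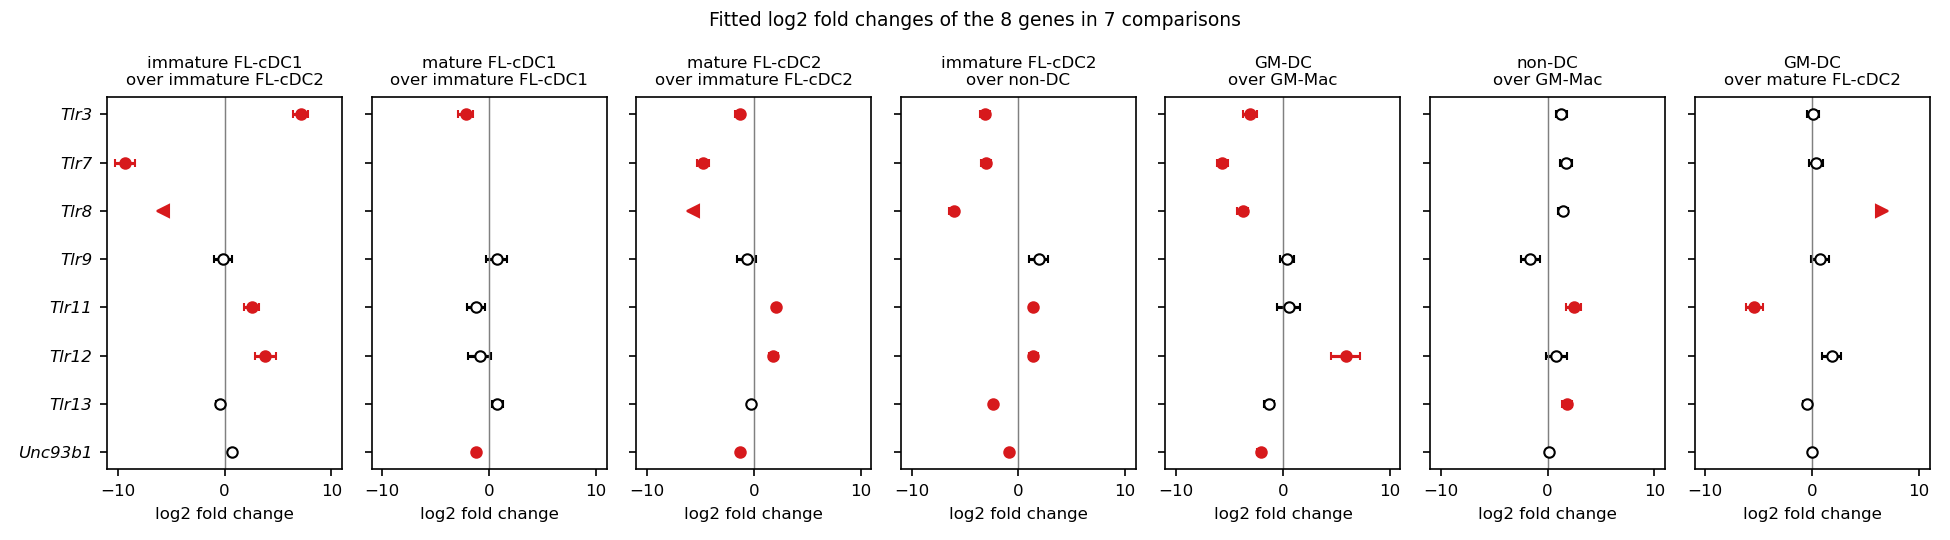
Log2 fold changes (x axes) of the 8 genes (y axis) in 7 comparisons. Points are edgeR fits with bars of 1 SE, red where the adjusted p was under 0.05, and triangles are lower bounds for Tlr8 against subsets with 0 reads. Tlr3 lies at 7.12 for immature FL-cDC1s over immature FL-cDC2s, and Tlr12 at 5.85 for GM-DCs over GM-Macs. The Tlr12 size rests on 85 and 0 reads in GM-Macs.

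Genes that fold, deliver, cut and signal for these receptors were read as 5 lists of 39 genes. During FL-cDC2 maturation, 4 of 13 folding and delivery genes rose and 4 fell, and 5 of 10 adaptors and transcription factors rose and 1 fell, where 22.5% of all genes rose and 24% fell. The list medians were 0.03 and 0.62, against 0 for all genes. The gene 5430427O19Rik, an older symbol of Tasl, whose product pairs with SLC15A4 to recruit IRF5, changed by -3.26 ± 0.22, and Slc15a4 by -1.19 ± 0.19. Myd88, the shared adaptor, changed by -1.74 ± 0.18, while Irf8, a transcription factor of cDC1s, rose by 4.82 ± 0.31.

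Nucleases that trim the ligands moved both ways in the same comparison, 3 of 6 higher (22.5% of all genes) and 2 lower (24%). Pld4, an exonuclease of endosomes, changed by -2.79 ± 0.22 and Pld3, of the same family, by 1.96 ± 0.30. Rnaset2a (2.63 ± 0.28) and Rnaset2b (2.54 ± 0.27), which cut RNA, are near-identical copies whose reads may be shared, so their split is uncertain. Of 6 proteases that cleave TLRs, Ctsl (-1.43 ± 0.28) and Ctsb (-1.03 ± 0.25) fell and Ctsh (0.78 ± 0.19) rose. Cd14, a co-receptor, changed by -3.23 ± 0.43 and Mex3b, an RNA-binding co-receptor of TLR3, by 3.52 ± 0.46.

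In FL-cDC1 maturation, Pld4 changed by -2.45 ± 0.40, Myd88 by -1.23 ± 0.38 and Hsp90b1, which encodes the TLR-folding chaperone gp96, by -1.34 ± 0.37. Traf3 (1.99 ± 0.26), Traf6 (1.91 ± 0.57) and Lgmn (1.94 ± 0.28), a TLR-cleaving endopeptidase, rose. Of the lists, 2 of 13 folding and delivery genes rose and 1 fell, 2 of 6 proteases rose, and 2 of 6 nucleases rose and 1 fell, where 12.6% of all genes rose and 8.28% fell.

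Before maturation, Irf8 was higher in FL-cDC1s than in FL-cDC2s by 6.47 ± 0.38, and Cd14 changed by -3.29 ± 0.42. Of 13 folding and delivery genes 1 was higher and 3 were lower, with Pikfyve, a lipid kinase of endosomes, at -1.77 ± 0.40. Of 6 proteases 3 were lower, and no nuclease of 6 passed, where 8.9% of all genes were higher and 11.4% lower.

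In GM-DCs over GM-Macs, the list medians of proteases and nucleases were -2.15 and -1.97, against -0.05 for all genes, of which 8.71% were higher and 10.6% lower. Of 6 proteases 4 fell, led by Ctsk (-5.43 ± 0.60) and Ctsb (-3.09 ± 0.51), and of 5 nucleases tested 3 fell, Pld4 (-2.34 ± 0.41), Dnase2a (-2.26 ± 0.41) and Pld3 (-1.97 ± 0.36), while Ctsh (-0.22 ± 0.38), Rnaset2a (1.40 ± 0.41, adjusted p = 0.058) and Rnaset2b (1.37 ± 0.41, adjusted p = 0.0604) did not pass. Cd14 changed by -4.16 ± 0.39. Of 13 folding and delivery genes only Ap3b1 (1.79 ± 0.40), a subunit of the AP-3 sorting adaptor, rose and only Sdcbp (-1.42 ± 0.38) fell. Of 10 macrophage markers, 9 fell in the same comparison, and their part in the fall of these genes was not tested.

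In immature FL-cDC2s over non-DCs, 5 of 6 proteases fell, among them Ctsk (-6.33 ± 0.27), where 24% of all genes fell. Pld3 changed by -4.91 ± 0.34 and Cd14 by -5.37 ± 0.47. In non-DCs over GM-Macs, Hsp90b1 (1.32 ± 0.29) and Sdcbp (1.14 ± 0.28) were higher among 13 folding and delivery genes, where 9.29% of all genes were higher.

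Irf7, which drives interferon genes after TLR7 and TLR9 signaling, was low in GM-BM culture. Its mean was 0.922 ± 0.268 (SD) FPKM in GM-DCs and 6.32 ± 0.795 FPKM in GM-Macs, and the lowest FL-BM mean was 33.2 ± 3.92 FPKM, in immature FL-cDC2s. It was higher in non-DCs than in GM-Macs by 3.75 ± 0.30 (adjusted p = 0.00013) and changed by -6.07 ± 0.34 in GM-DCs over mature FL-cDC2s (adjusted p = 9.6e-06).

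**Figure D5:**
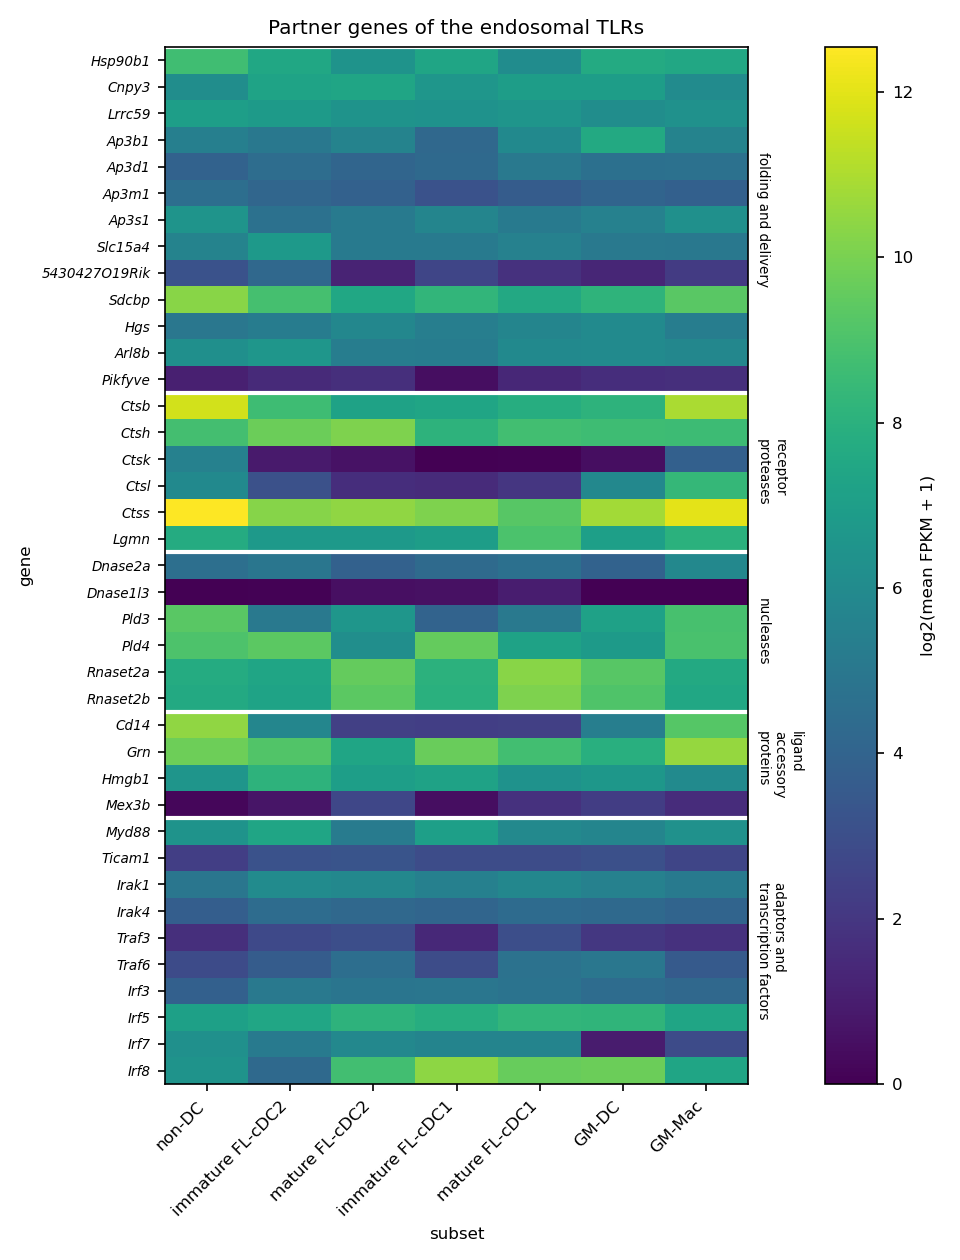
Log2 of mean FPKM plus 1 (color) of 39 partner genes (rows, in 5 lists) in 7 subsets (columns). Irf7 is at 0.922 FPKM in GM-DCs and 6.32 FPKM in GM-Macs, below its level in each FL-BM subset.

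Genes with the pattern most like each member were found over the 13 libraries by Pearson r of log2(FPKM + 1) among 12001 genes, as a description, since libraries of a subset are not independent points. Tlr9, which did not reach 1 FPKM in any library, was left out. Tlr7 was most like Slc16a7, Cx3cr1 and Csf3r (r = 0.99, 0.98 and 0.98), and Tlr8 most like Mfsd7a, Clec5a and Mpp1 (each 0.99). Tlr3 was most like 4930486L24Rik, Slc4a11 and Itga8 (0.98, 0.97 and 0.97). Tlr11 was most like Phf11b, Phf11a and Gm6904 (each 0.94), and Tlr12 most like Htr7, Stard10 and P2rx5 (0.95, 0.93 and 0.93). Tlr13 was most like Mtpn, Acsl1 and Zfp655 (0.94, 0.94 and 0.93), and Unc93b1 most like Shisa5, Cd53 and Nucb2 (0.98, 0.97 and 0.97). Among the members, r was 0.90 for Tlr7 with Tlr8 and 0.45 for Tlr11 with Tlr12.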

How the data were processed

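Bulk RNA was sequenced in 13 libraries of 7 subsets. The authors deposited read counts, as whole reads per gene without normalization, and FPKM, which they scaled by transcript length and library size. Alignment to mm10 by HISAT and assembly by StringTie 1.3.4d are named in the methods, while STAR 2.6.0c and HTSeq appear among the submitters' processing notes. Whether counting used strand is not stated in the sources used here. cDNA was amplified by PCR without molecular identifiers.

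Tests ran in edgeR 4.0.16 (filterByExpr, TMM, quasi-likelihood). The fit held 6 libraries within the cDC2 gate, 4 for GM-DCs against GM-Macs, and 13 otherwise. A fold against a subset with 0 reads is a lower bound from 3 reads per library, the smaller of the values on the TMM and FPKM scales. Alternatives were no filter, library size alone, RLE factors, other libraries in the fit, a replicate block, leaving out each replicate, DESeq2 1.42.0, limma 3.58.1 on log2(FPKM + 1) or log2(FPKM + 0.1) for genes reaching 1 FPKM, and, chosen after seeing the data, an offset for each library's transcript length trend. The fits were tested on simulated data.

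The members and lists were chosen with earlier results of these data known. Besides members and sorting markers, up to 4 genes per list and comparison were named, by size of change among those past the test, and the 3 genes most correlated with each member. Positions and promoters are from RefSeq GRCm38.p6, matched by gene identifier.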

Additional observations from a re-analysis of the deposited data

Results flagged for a closer look

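The change of Tlr8 between macrophage-like cells and DCs differed between the cultures by a test of the difference itself. The GM-BM change (GM-DCs over GM-Macs) minus the FL-BM change (mature FL-cDC2s over non-DCs) was 12.5 on the log2 scale (edgeR adjusted p = 0.000993). That fitted size depends on how 0 reads in both mature FL-cDC2 libraries are handled and is no bound. The GM-BM change was -3.78, and Tlr8 was at least 2867-fold lower in mature FL-cDC2s than in non-DCs. Tlr8 was the 1 member of 8 past this test, against 8.51% of genes (5.31% higher and 3.2% lower). Of 10 macrophage markers, 9 passed in the same direction, and their part in the difference was not tested.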

How the results depend on the processing

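Directions of called members held under every alternative run. Counts of members past the test moved as follows, and the causes were not tested. Leaving out 1 replicate gave 3 to 5 for immature FL-cDC1s over immature FL-cDC2s (5 with all), 1 for mature over immature FL-cDC1s (2), 4 to 6 for mature over immature FL-cDC2s (6), 4 to 6 for GM-DCs over GM-Macs (5), 0 to 5 for non-DCs over GM-Macs (2), 4 to 7 for immature FL-cDC2s over non-DCs (7), 2 for GM-DCs over mature FL-cDC2s (2), 0 for the maturation difference (0), 1 to 2 for the culture difference of DC over macrophage-like change (1), and 5 to 16 for the 48 neighbours in the orders of levels (8). For mature over immature FL-cDC1s, no filter, library size alone and RLE factors each gave 1, and only the libraries compared gave 0. For non-DCs over GM-Macs, library size alone gave 1, and DESeq2 and limma on log2(FPKM + 0.1) gave 4. For the maturation difference, DESeq2 and both limma settings gave 2, and only the libraries compared gave 1. For the culture difference, DESeq2, limma on log2(FPKM + 0.1) and the length offset gave 2, and limma on log2(FPKM + 1) gave 4. For neighbours, DESeq2 and the length offset gave 13. Of the single members, 853 values under alternatives stayed on their side of the threshold, 46 lost and 39 gained the call.

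Deviations of the replicates correlated between subsets at r = -0.158 to 0.309. The highest r was that of immature FL-cDC1s with GM-Macs, whose replicates stood apart by transcript length. These values cannot tell whether libraries with the same replicate number shared a culture. The replicate block could be fitted in 7 comparisons and differences. It gave 5, 6, 5, 2, 7, 2 and 1 members, the same counts as without it. Library size alone moved the share of calls that were higher from 43.8% to 19.0% for immature FL-cDC1s over immature FL-cDC2s (median of all genes -0.46), 48.4% to 31.2% for mature over immature FL-cDC2s (-0.40), 45.1% to 56.2% for GM-DCs over GM-Macs (0.19), 45.4% to 32.1% for non-DCs over GM-Macs (-0.25), and 49.6% to 75.1% for immature FL-cDC2s over non-DCs. Over all genes, calls ranged from 1292 to 4593 for immature FL-cDC1s over immature FL-cDC2s (3034), 1773 to 4449 for mature over immature FL-cDC1s (3120), 1599 to 4264 for GM-DCs over GM-Macs (2528), 752 to 4299 for non-DCs over GM-Macs (3057), 3851 to 7486 for immature FL-cDC2s over non-DCs (6309), 1582 to 4576 for GM-DCs over mature FL-cDC2s (3079), 468 to 1945 for the maturation difference (901) and 469 to 2533 for the culture difference (1271). Tlr9 had at most 109 reads in any library.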
